A study of Mus musculus with 7 samples.

Results

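The 10 genes described here, Fth1, Ftl1, Ncoa4, Tfrc, Steap3, Slc11a1, Slc11a2, Slc40a1, Ireb2 and Aco1, code for the core of cellular iron handling, and were taken by name from the 55341 gene names of a bulk RNA-seq count table. The rule names them by their known roles and uses no measured value, but it was set with earlier results of these data known. Microglia, the resident macrophages of the brain, had been sorted as CD11b+CD45low cells from the cortex of 5xFAD mice at an age of 14 weeks. These C57BL/6 mice express mutant human APP and PS1 from the neuron-specific Thy1 promoter and deposit Aβ. Both groups therefore carried the 5xFAD transgenes and came from injected brains, and the control was cortex near the graft, not cortex of an uninjected mouse. A suspension of cortical cells from WT embryos had been injected into the cortex 4 weeks earlier, and the resulting grafts were cut out under a microscope. The 7 libraries, 3 of graft and 4 of surrounding cortex, held between 18644807 and 25882122 counted reads. By the study's methods only female mice were used and cells were injected into both hemispheres. The sources used here do not tie a library to a mouse, so libraries may share one, and every P below measures only the spread between these libraries.

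Iron enters most cells as transferrin-bound ferric iron through the transferrin receptor, is reduced in the endosome and crosses into the cytosol through a divalent metal transporter. Surplus iron is stored inside ferritin, a hollow shell of heavy and light chains, from which it is recovered when the receptor NCOA4 delivers ferritin to the lysosome. The only known exporter is ferroportin. Macrophages recycle iron from engulfed material and also withhold it from microbes, and in microglia ferritin genes belong to the programme described around amyloid plaques. Much of this system is set after transcription: when iron is scarce, the iron regulatory proteins bind a hairpin in the messenger, the iron-responsive element, which blocks translation when it lies in the 5′ UTR and protects the messenger when it lies in the 3′ UTR. Messenger levels of the ferritin chains and ferroportin can therefore differ from the levels of their proteins, which were not measured in these libraries.

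The hairpins are shown because their place differs among the members in which one was found. It was the 5′ UTR for genes of storage and export and the 3′ UTR for genes of uptake and endosomal transport. The UTRs of the GENCODE M21 protein-coding transcripts (GRCm38) were searched for the loop CAGTGN preceded by a C bulge, with a stem of 5 bases between bulge and loop in which at least 4 of 5 positions could pair, GU pairs included. Each line gives 29 bases, 5′ to 3′, written as DNA of the gene's own strand, with the 6 bases of the loop in capitals. The hairpins on the next 3 lines lie in 5′ UTRs, of the heavy chain Fth1 (chr19:9982732-9982760, plus strand), the light chain Ftl1 (chr7:45459779-45459807, minus strand) and ferroportin, Slc40a1 (chr1:45925465-45925493, minus strand).
Fth1: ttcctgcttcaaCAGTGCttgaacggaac
Ftl1: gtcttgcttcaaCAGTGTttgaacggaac
Slc40a1: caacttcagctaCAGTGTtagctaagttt
The 4 hairpins of the transferrin receptor Tfrc lie in its 3′ UTR on the plus strand of chromosome 16, at chr16:32631219-32631247, chr16:32631598-32631626, chr16:32631663-32631691 and chr16:32631710-32631738, and follow in that order.
Tfrc a: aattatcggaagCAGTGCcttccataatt
Tfrc b: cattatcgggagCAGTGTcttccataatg
Tfrc c: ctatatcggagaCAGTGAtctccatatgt
Tfrc d: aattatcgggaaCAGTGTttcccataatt
The last lies in the 3′ UTR of a transcript of the divalent metal transporter Slc11a2 that is not its principal one (chr15:100395153-100395181, minus strand), and had 4 of 5 stem pairs where all others had 5.
Slc11a2: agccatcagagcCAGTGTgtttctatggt
With all 5 pairs required, such a hairpin was found in the 5′ UTR of 0.148% of 20899 genes and in the 3′ UTR of 0.595% of 21685 genes, and with 4 or 5 pairs in 0.981% and 4.02%. No match in these windows was found in the UTRs of Ncoa4, Steap3, Slc11a1, Ireb2 or Aco1. A match describes the letters of the annotated transcript and was not measured as a site of binding.

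All 10 members passed the filter on low counts, as did 15257 of all gene names. Per kilobase of each gene's principal transcript, and as the mean ± SD of library-scaled counts (CPM, with TMM-scaled library sizes) over the 7 libraries, the ferritin chains stood highest, with Fth1 at 1361 ± 438 and Ftl1 at 1003 ± 257 CPM per kb. Slc11a1, the gene of a metal transporter of the phagosome membrane, followed at 178 ± 38.7 and Slc40a1 at 85.4 ± 20.8 CPM per kb. The middle of the order was held by Ncoa4 at 19.6 ± 3.03, Slc11a2 at 14.0 ± 1.90, Aco1 at 13.5 ± 2.10 and Ireb2 at 9.13 ± 1.49 CPM per kb. Tfrc at 2.86 ± 1.16 and the endosomal ferric reductase Steap3 at 0.226 ± 0.189 CPM per kb were lowest. Each gene was above the next in 7 of 7 libraries, except that Slc11a2 was above Aco1 in 3 of 7, so these 2 were not ordered. Parts of this order depend on the length used. With the exon length of all annotated transcripts, Aco1 stood above Ncoa4 and Slc11a2, at 11.5 against 8.50 and 6.68 CPM per kb. The place of Fth1 above Ftl1 also changed with that length, since Ftl1 came first at 724 CPM per kb and Fth1 second at 586. The count of Ftl1 is also the more understated of the 2, because the authors left out reads that aligned to several places, and 67.3% of the 75-base windows of its principal transcript also occur in other genes, against 2.32% for Fth1. For Ncoa4 this share was 41.4%, all of it with the gene model Gm6768, and for the other 7 members it was 0%. Strand was not used in counting, so where Gm10252 overlaps Ftl1 and Gm5475 overlaps Slc11a2 on the opposite strand, their reads cannot be told apart. The 2 models were given at most 19 and 8 counts in any library. These counts do not bound any reads left uncounted on the shared bases.

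The design compares the expression profile of microglia in the graft with that of microglia in cortex without graft, and the members were read in that comparison. With edgeR's quasi-likelihood test, 0 of 10 members passed an adjusted P of 0.01 or of 0.05. Over all 15257 genes tested, edgeR called 0% at 0.01 and 0.0983% at 0.05. With voomWithQualityWeights, the test of the study, which weights each library, 0 of 10 members passed either threshold, against 0.0197% of all genes at 0.01 and 0.492% at 0.05. At an unadjusted P below 0.05, edgeR placed 3 members, Fth1, Ftl1 and Slc11a1, all higher inside the graft, where it placed 9.55% of all genes. On that scale voomWithQualityWeights added Slc40a1, lower inside the graft, for 4 members, against 12.2% of all genes. In Fth1 and Slc11a1 every inside library was above every outside library, as in 5.65% of all genes, and no member had every inside library below, as 5.02% of all genes did. Of the 10 log2 fold changes of edgeR, 5 were above 0 and 5 below, with a median of 0.056, while the median of all genes tested was -0.0064. In the plots of CPM by library, the values of each member are drawn apart.

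**Figure D1:**
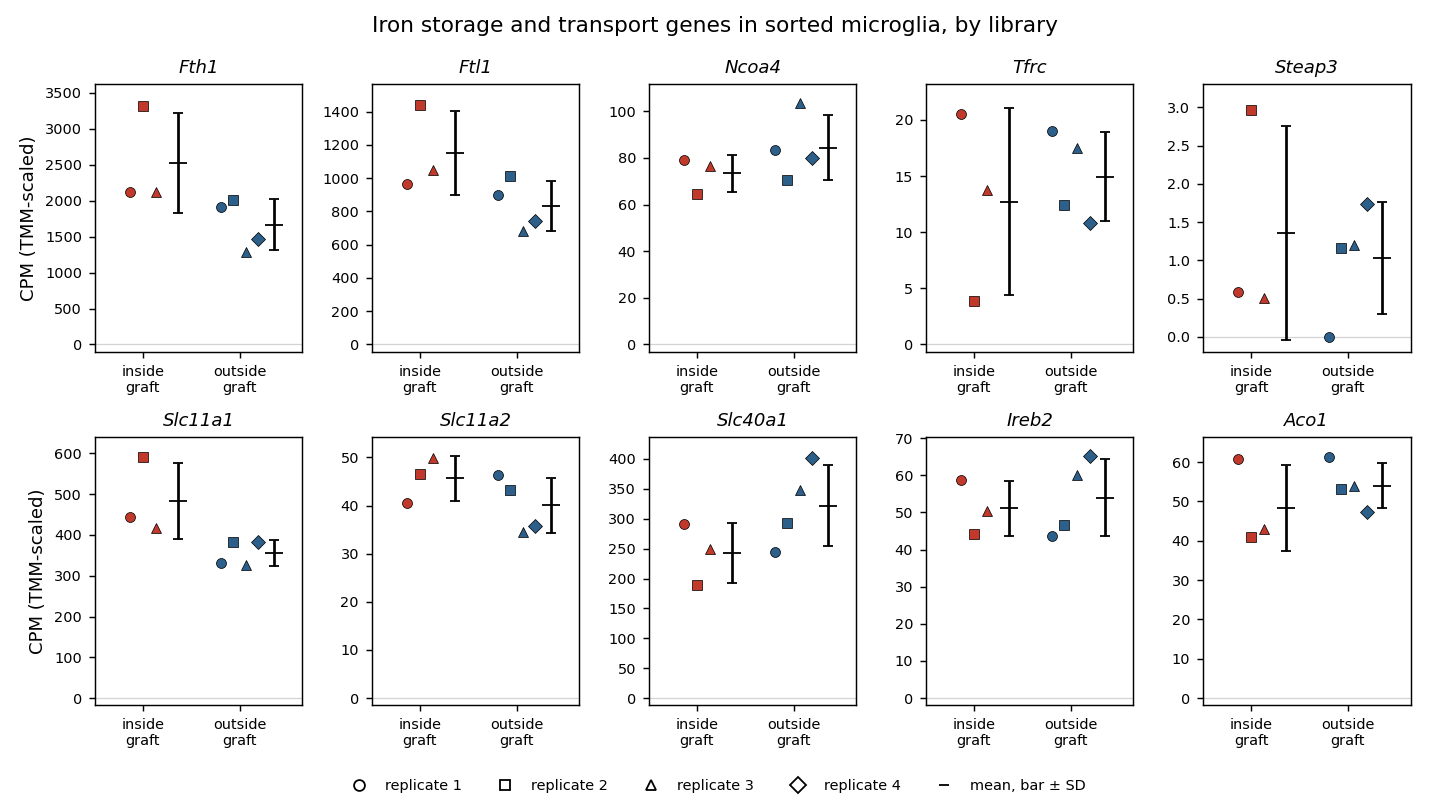
CPM (vertical axis, linear, TMM-scaled, each panel with its own range) of the 10 members in the 3 inside (red) and 4 outside (blue) libraries, with marker shape giving the replicate number and bars the mean ± SD of the group. The inside points lie above all outside points for Fth1 and Slc11a1, while inside graft 2 is the highest of the 7 libraries for Fth1, Ftl1 and Slc11a1 and the lowest for Tfrc, Slc40a1, Ncoa4 and Aco1.

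Of the storage genes, Fth1, whose heavy chain carries the ferroxidase activity that oxidises iron for storage (gene at chr19:9980598-9985098), stood at 2124, 3320 and 2120 CPM inside the graft and at 1916, 2006, 1283 and 1463 CPM outside it. The groups did not overlap, but the gap between the lowest inside library and outside graft 2 was small beside the spread within either group. The mean was 2521 ± 691 CPM inside (SD, n = 3) and 1667 ± 349 CPM outside (SD, n = 4), a ratio of 1.51. In edgeR the log2 fold change was 0.60 with an SE of 0.196, a 95% interval from 0.16 to 1.03 and an adjusted P of 0.308. VoomWithQualityWeights gave 0.69 and an adjusted P of 0.120. Leaving out inside graft 2, the library with the highest value, moved the edgeR log2 fold change to 0.35.

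Ftl1, the light chain, which aids the formation of the iron core (chr7:45457944-45459884), stood at 966, 1442 and 1048 CPM inside and at 899, 1014, 682 and 743 CPM outside the graft. Here the groups overlapped, since outside graft 2 was above inside graft 1. The edgeR log2 fold change was 0.46 with an SE of 0.172, a 95% interval from 0.082 to 0.85 and an adjusted P of 0.395, and without inside graft 2 it was 0.27. The reads that other genes with the same windows had received came to at most 0.467% of the summed counts for Ftl1 and 0.446% for Fth1, and adding them left the log2 fold changes at 0.46 and 0.60. Reads that the authors did not count cannot be restored from the table.

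The chains varied together. The ratio of Fth1 counts to Ftl1 counts was 2.20, 2.30 and 2.02 inside and 2.13, 1.98, 1.88 and 1.97 outside the graft, a range far narrower than that of either gene. Together they took 0.304%, 0.452% and 0.324% of all counts inside and 0.283%, 0.306%, 0.200% and 0.221% outside. Inside graft 1 lay just below outside graft 2 in this share, so the groups overlapped here too, and these ratios were not tested.

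Ncoa4, the receptor that carries ferritin to the lysosome (chr14:32159865-32179855), was at 79.3, 64.4 and 76.3 CPM inside and at 83.5, 70.5, 103.5 and 80.1 CPM outside the graft. Its values overlapped widely, and inside graft 2, the library with the most ferritin messenger, had the least Ncoa4. The edgeR log2 fold change was -0.20, with a 95% interval from -0.55 to 0.14 and an adjusted P of 0.766.

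Of the uptake genes, Tfrc, the transferrin receptor (chr16:32608920-32632794), was the most uneven among the well-counted members. It stood at 20.5, 3.91 and 13.8 CPM inside the graft and at 19.1, 12.4, 17.5 and 10.8 CPM outside it. The coefficient of variation was 65.6% inside and 26.5% outside, and inside graft 2 lay far below the other 6 libraries. The edgeR log2 fold change of -0.23 had a 95% interval from -1.25 to 0.79 and an adjusted P of 0.933. Without inside graft 2 the log2 fold change turned to 0.20. Per kilobase of exon, Tfrc came to 0.660 counts for every 1000 of Fth1 in inside graft 2 and to between 3.47 and 7.65 in the other 6 libraries.

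Steap3, which reduces ferric iron in the endosome (chr1:120190757-120272705), was near the limit of detection. Its counts were 15, 67 and 12 inside the graft and 0, 26, 30 and 43 outside it, or 0.589, 2.97 and 0.506 CPM against 0, 1.16, 1.21 and 1.74 CPM. The count of 0 in outside graft 1 allows a level of up to 0.160 CPM, counting error only. The edgeR log2 fold change of 0.39 had a 95% interval from -2.09 to 2.88 and an adjusted P of 0.958, and it turned to -0.13 with voomWithQualityWeights and to -0.91 without inside graft 2. No difference in Steap3 was detectable at this depth.

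The paralogous transporters Slc11a1 and Slc11a2 were unlike in level and in spread. A working Slc11a1 protein pumps iron and other divalent metals across the membrane of phagosomes in macrophages. Whether the protein works in mice of the strain used was not measured, so the messenger level is no measure of metal transport. The messenger of Slc11a1 (chr1:74375195-74386062) stood at 445, 590 and 417 CPM inside the graft and at 331, 383, 327 and 384 CPM outside it. The groups did not overlap, and the outside libraries were close together, with a mean of 356 ± 31.4 CPM (SD, n = 4) against 484 ± 93.2 CPM inside (SD, n = 3). Slc11a1 had the smallest unadjusted P of the 10 members, 0.00998 in edgeR. In edgeR the log2 fold change was 0.44 with an SE of 0.140, a 95% interval from 0.13 to 0.75 and an adjusted P of 0.288. VoomWithQualityWeights gave 0.42 and an adjusted P of 0.174. Across the alternatives tried, the adjusted P ran from 0.0476, with the DESeq2 Wald test, to 0.562, and without inside graft 2 the log2 fold change was 0.27.

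Slc11a2, the divalent metal transporter of the endosome (chr15:100387898-100425072), was at 40.5, 46.6 and 49.8 CPM inside and at 46.4, 43.3, 34.5 and 35.8 CPM outside the graft. The groups overlapped, and the edgeR log2 fold change was 0.19, with a 95% interval from -0.17 to 0.55 and an adjusted P of 0.802.

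The genes whose log2 CPM followed that of Slc11a1 most closely over the 7 libraries, of 8918 genes with a mean of at least 10 CPM, were Lrpap1, Uqcrh and Fcgr2b. Their root mean square differences from it, after centring, were 0.072, 0.083 and 0.087 on the log2 scale, where Slc11a1 itself had a root mean square spread of 0.27. Lrpap1 codes for a chaperone of lipoprotein receptors, Uqcrh for a subunit of the mitochondrial respiratory chain and Fcgr2b for an inhibitory receptor for antibodies. This is a description over 7 libraries that share the same difference in inside graft 2, the highest of the 7 for all 4 genes.

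The exporter Slc40a1, ferroportin (chr1:45908068-45926523), stood at 290, 189 and 249 CPM inside the graft and at 245, 292, 348 and 401 CPM outside it. Inside graft 2 was the lowest and outside graft 4 the highest, and the groups overlapped through inside graft 1 and inside graft 3, both above outside graft 1. The mean was 243 ± 50.7 CPM inside (SD, n = 3) and 322 ± 67.8 CPM outside (SD, n = 4). In edgeR the log2 fold change was -0.40 with an SE of 0.191, a 95% interval from -0.83 to 0.020 and an adjusted P of 0.552. VoomWithQualityWeights, in which outside graft 1 had the lowest weight of 0.448 and outside graft 4 the highest of 1.76, gave -0.51, with a 95% interval from -0.88 to -0.13 and an adjusted P of 0.244. Without inside graft 2 the edgeR log2 fold change was -0.25.

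Fth1 and Slc40a1 lay in opposite directions, and their ratio spread more than either gene. The ratio of Fth1 CPM to Slc40a1 CPM was 7.32, 17.5 and 8.52 inside the graft and 7.83, 6.86, 3.69 and 3.65 outside it. Inside graft 2 was far above the other 6 libraries, and inside graft 1 was below outside graft 1. The ferritin chains made up between 75.6% and 82.9% of the counts of the 10 members inside the graft and between 67.5% and 77.2% outside it. The choice of these ratios was made with earlier results of the data known, and they were not tested.

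**Figure D2:**
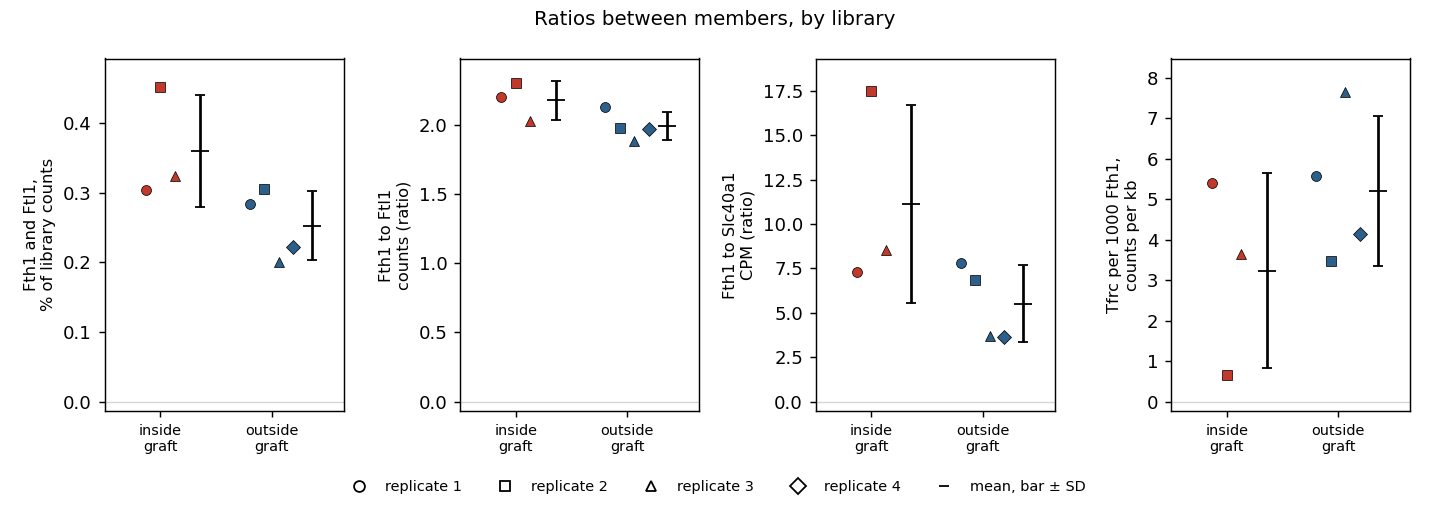
Ratios between members in each library (vertical axes linear from 0), with marker shape giving the replicate number and bars the mean ± SD of the 3 inside (red) and 4 outside (blue) libraries: the share of counts on Fth1 and Ftl1, the ratio of their counts, the CPM ratio of Fth1 to Slc40a1, and Tfrc per 1000 of Fth1 per kilobase. Inside graft 2 stands apart in the third panel at 17.5 and in the fourth at 0.660, and the groups overlap in all 4 panels.

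The genes of the iron regulatory proteins, which bind such hairpins, had small log2 fold changes. Ireb2, which codes for the protein that is degraded when iron is plentiful (chr9:54863789-54912530), was at 58.7, 44.1 and 50.4 CPM inside and at 43.8, 46.5, 60.1 and 65.2 CPM outside the graft, with an edgeR log2 fold change of -0.078 and a 95% interval from -0.48 to 0.32. Aco1, which codes for the protein that is an aconitase while it holds an iron-sulphur cluster and binds messengers when it has lost it (chr4:40143081-40198338), was at 60.8, 41.1 and 43.1 CPM inside and at 61.4, 53.2, 53.9 and 47.4 CPM outside. Its edgeR log2 fold change was -0.16, with a 95% interval from -0.54 to 0.23. The adjusted P in edgeR was 0.947 for Ireb2 and 0.859 for Aco1, and the libraries of both groups were interleaved. The sign of Ireb2 turned on leaving out inside graft 2 or outside graft 4, with values of 0.017 and 0.028.

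**Figure D3:**
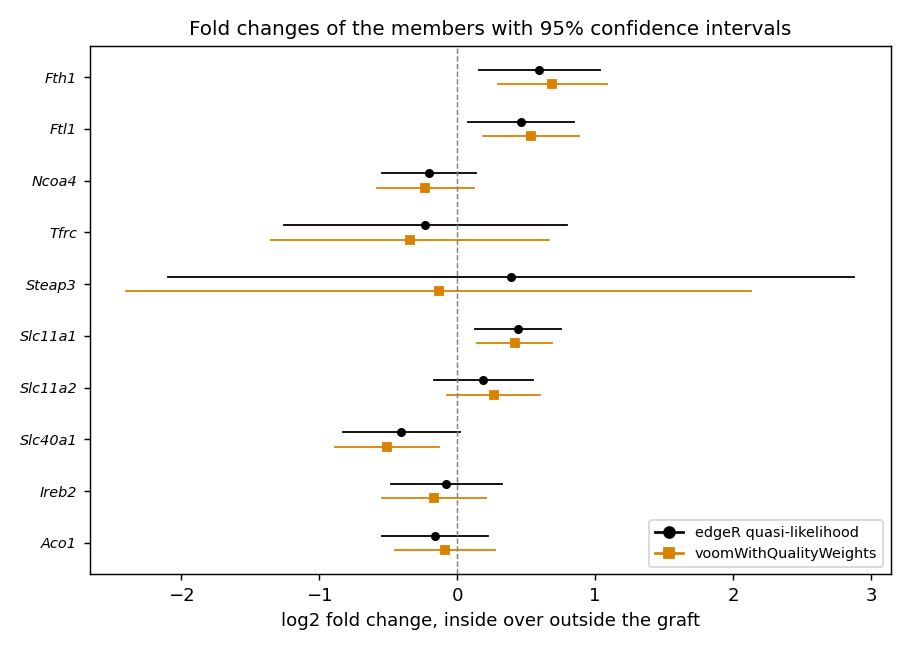
Log2 fold change of each member (horizontal axis, positive where higher inside the graft, 0 marked by a dashed line), in edgeR (black circles) and voomWithQualityWeights (orange squares), with lines giving 95% confidence intervals. The intervals of Fth1, Ftl1 and Slc11a1 lie above 0 in both tests and that of Slc40a1 below 0 in voomWithQualityWeights alone, before adjustment for the 15257 genes tested.

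Among the members grouped by the position of their hairpin, those with a hairpin in the 5′ UTR did not share a direction, since Fth1 and Ftl1 had log2 fold changes of 0.60 and 0.46 and Slc40a1 of -0.40. Those with a hairpin in the 3′ UTR, Tfrc and Slc11a2, had -0.23 and 0.19. For Slc11a2 the hairpin lies in a transcript that is not its principal one, while the value counts the whole gene. None of these 5 values passed the adjusted test. A hairpin in the 5′ UTR acts on translation, so messenger levels cannot show its action. No conclusion on iron regulation was drawn from these values.

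Of 47 other genes of iron handling, 32 were tested. None passed an adjusted P of 0.01 or 0.05 in edgeR or in voomWithQualityWeights, 13 log2 fold changes were above 0 and 19 below, and the median was -0.086. At an unadjusted P below 0.05 there were 4 in edgeR (Lcn2, Slc22a17, Hp and Pcbp1) and 4 in voomWithQualityWeights (Hfe, Slc22a17, Cp and Pcbp1, of which Hfe is outside the rule for named genes), near the 9.55% and 12.2% of all genes. With no filter on low counts, edgeR called 2 of the 47 at 0.01, Lcn2 and Hp. Of the 15 that were not tested, Tfr2, Steap4, Timd2, Hjv, Bmp6 and Ftmt had no count in any of the 7 libraries. Ceruloplasmin, Cp, the ferroxidase that works with ferroportin, was the only one of 7 export and hormone genes with enough counts, at 9.97, 22.6 and 31.2 CPM inside and 20.7, 6.89, 5.51 and 3.32 CPM outside the graft, with an edgeR log2 fold change of 1.23 and an adjusted P of 0.552. Outside graft 1 was the high outside library, and without it the edgeR log2 fold change of Cp was 2.02 with an adjusted P of 0.102. Without inside graft 3 the edgeR log2 fold change of Cp was 0.84 with an adjusted P of 0.870.

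In the other genes of iron uptake, 2 of 6 log2 fold changes were above 0. Lcn2, whose product lipocalin 2 binds iron-loaded siderophores, was at 377, 30.8 and 729 CPM inside and at 0, 0.044, 26.3 and 0.081 CPM outside, with an edgeR log2 fold change of 5.81 and an adjusted P of 0.197. Outside graft 3 held nearly all the outside counts, and without it the edgeR log2 fold change of Lcn2 was 12.86 with an adjusted P of 0.0414. Slc22a17, proposed as the receptor of lipocalin 2, was at 69.9, 88.5 and 84.7 CPM inside and at 118, 97.7, 110.2 and 117 CPM outside, with no overlap, a log2 fold change of -0.45 and an edgeR adjusted P of 0.225. In haem handling, 4 of 9 were above 0, and Hp, whose product haptoglobin binds free haemoglobin, was at 58.5, 3.51 and 112 CPM inside and at 0, 0, 2.45 and 0.364 CPM outside, with a log2 fold change of 6.28 and an edgeR adjusted P of 0.092. For Hp the edgeR adjusted P was 0.0278 without inside graft 2 and 0.0344 with the replicate number as a block, and the log2 fold change was 8.70 without outside graft 3. Flvcr2 had the next largest value of that group, -0.99, with an edgeR adjusted P of 0.909. Its mean was below 1 CPM in each group, and its log2 fold change was -4.96 without inside graft 1.

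Of the genes of iron sensing and chaperones, 2 of 5 were above 0. Pcbp1, which codes for a chaperone that delivers iron to ferritin, was at 243, 249 and 227 CPM inside and at 291, 295, 276 and 281 CPM outside, with no overlap, a log2 fold change of -0.25 and an edgeR adjusted P of 0.420. Herc2, which codes for a ubiquitin ligase of NCOA4, had a log2 fold change of -0.17 and an edgeR adjusted P of 0.709. Of the 11 genes of mitochondrial iron, 4 were above 0, 7 were below 0 and none had an unadjusted P below 0.05 in edgeR.

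**Figure D4:**
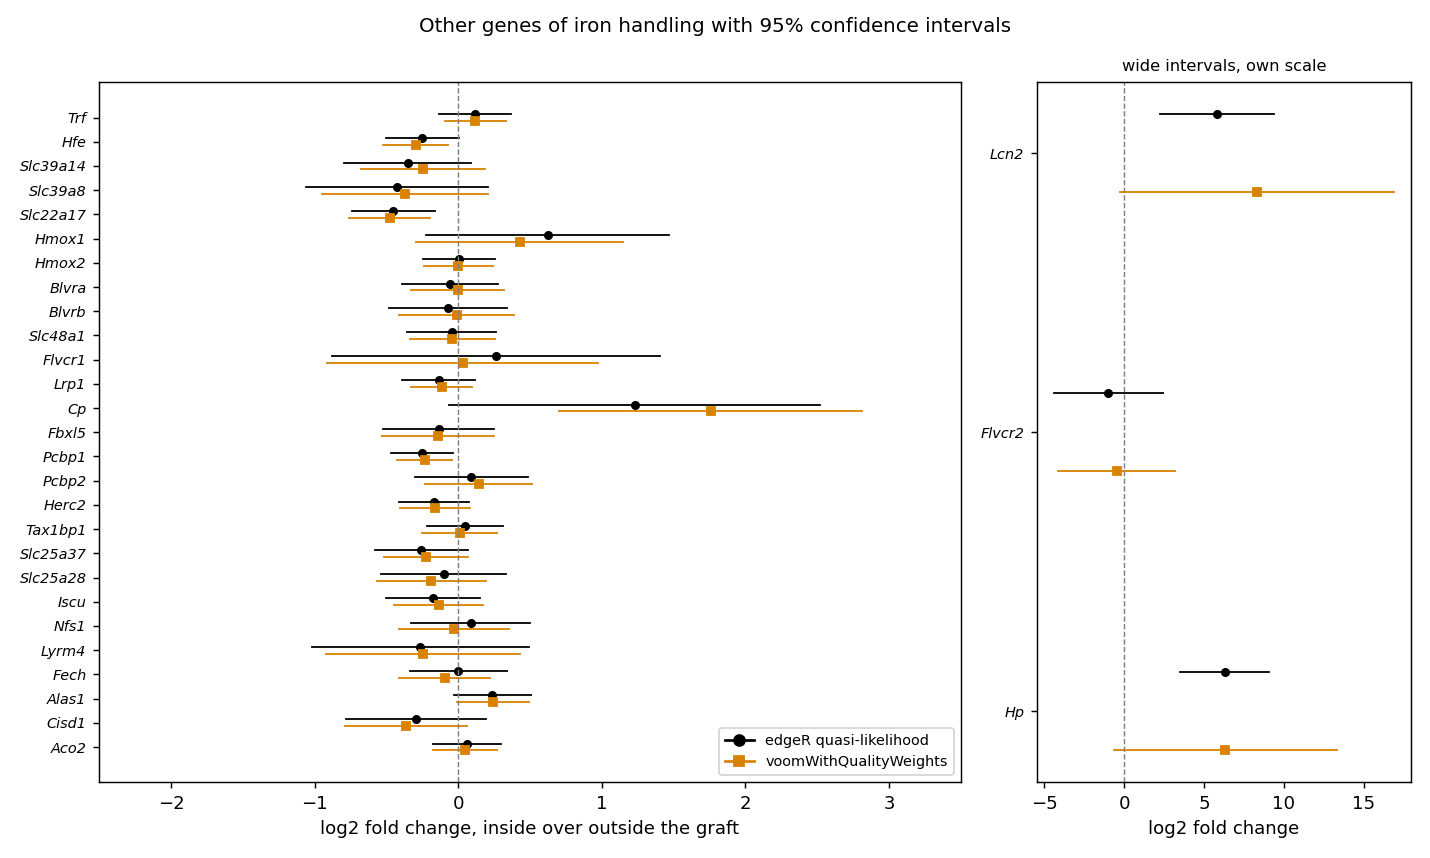
Log2 fold change (horizontal axes, positive where higher inside the graft, 0 marked by a dashed line), of 30 of the 32 tested other genes of iron handling, the other two being not reported here, in edgeR (black circles) and voomWithQualityWeights (orange squares), with lines giving 95% confidence intervals. Lcn2, Hp and Flvcr2 are drawn on a wider scale, Lcn2 at 5.81 and Hp at 6.28 in edgeR, while apart from Cp at 1.23 the genes on the left lie within 1 log2 unit of 0 in edgeR.

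Lcn2 and Hp are also known as products of neutrophils, and 8 neutrophil genes, a list chosen after their values were seen, summed to 7513, 797 and 15295 CPM inside the graft and to 0.640, 0.311, 367 and 18.1 CPM outside it. Of these 8 genes 7 had the higher mean CPM inside the graft and Mmp8 the lower, a count that the choice of the list largely fixed, and S100a9, the most abundant per kilobase, ran from 177 to 3834 CPM inside and from 0.053 to 85.9 CPM outside. Lcn2 and Hp were highest in the same library, inside graft 3, and among the outside libraries in outside graft 3. None of the 9 monocyte genes was at 0 throughout, and they summed to 669, 96.0 and 1384 CPM inside and to between 17.9 and 39.3 CPM outside, led per kilobase by Chil3 with 67.6 to 1189 CPM inside and 0 to 15.0 CPM outside. In the study's methods, the gating protocol to which the sort refers back lists antibodies to Ly6C and Ly6G among its lineage markers, besides CD11b and CD45. The part of neutrophils and monocytes in the values of Lcn2 and Hp was not tested.

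Inside graft 2 had the highest Fth1, Ftl1 and Slc11a1 and the lowest Slc40a1, and its neutrophil and monocyte sums were the lowest of the 3 inside libraries. Of 8 border-associated macrophage genes, 7 had the higher mean CPM inside the graft. Stab1, the most abundant per kilobase, ran from 379 to 533 CPM inside and from 527 to 622 CPM outside, and it made up most of their sum of 646, 396 and 640 CPM inside and 533 to 632 CPM outside. The other 7, summed apart after the values were seen, came to 113, 16.7 and 121 CPM inside and between 5.96 and 17.8 CPM outside. In this sum inside graft 2 overlapped the outside libraries. Of the 8 genes of the list 7 were tested, and 2 of those had every inside library above every outside library, as 5.65% of all genes did. The 8 proliferation genes were higher in every inside library than in every outside library, as 5.65% of all genes were. Their sums were 130, 88.9 and 162 CPM inside against 9.25 to 37.1 CPM outside. Rrm2, the most abundant per kilobase, was at 7.41 to 31.3 CPM inside and 0 to 1.78 CPM outside. Among the 8, 3 passed an adjusted P of 0.05 in voomWithQualityWeights, against 0.492% of all genes, and 0 in edgeR, against 0.0983%. In edgeR all 8 had an unadjusted P below 0.05, as 9.55% of all genes had. The part of any of these cells in the values of Fth1, Ftl1, Slc11a1 and Slc40a1 was not tested. In bulk libraries, fewer cells of a type and less RNA per cell cannot be told apart, for the members as for the markers.

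The labelled cell type was checked on 11 homeostatic microglia genes, which were detected throughout and summed to between 48866 and 62567 CPM in all 7 libraries. All 11 had log2 fold changes below 0, with a median of -0.19, and 0 passed the adjusted test in edgeR, where 6 had an unadjusted P below 0.05, against 9.55% of all genes. Red blood cells, rich in iron and haem, had 5 genes that summed to at most 1.78 CPM in any library, with Hbb-bs, the most abundant per kilobase, at most at 0.843 CPM. Oligodendrocytes hold much of the iron of the brain, and 8 of their genes summed to between 156 and 165 CPM, with Cnp, the most abundant per kilobase, at 79.2 to 93.7 CPM inside and 81.2 to 91.0 CPM outside. Neuron genes summed to between 3.11 and 10.4 CPM, led per kilobase by Snap25 at no more than 7.58 CPM, and astrocyte genes to between 2.45 and 13.6 CPM, led per kilobase by Aldh1l1 at 0 to 9.73 CPM, with Gja1 at 0 in every library.

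**Figure D5:**
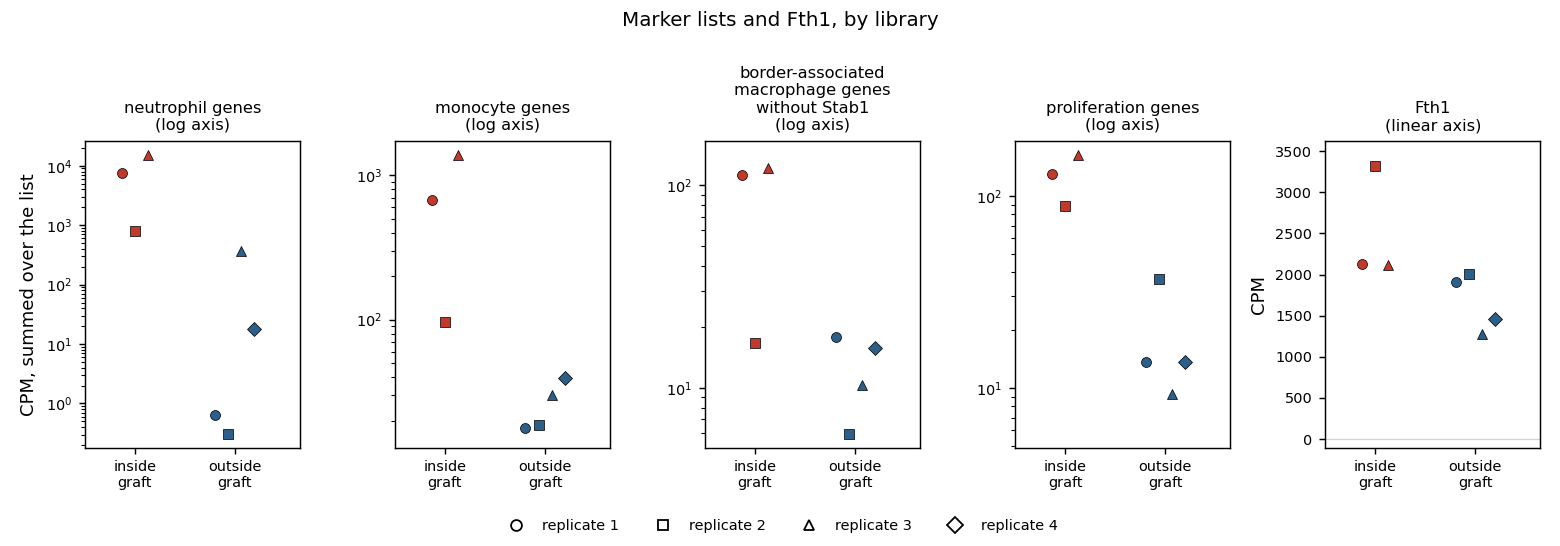
Summed CPM of 4 marker lists, that of border-associated macrophages without Stab1, and CPM of Fth1 in each library (vertical axes log or linear from 0, as each panel's title says), inside (red) and outside (blue) the graft, with marker shape giving the replicate number. Among the inside libraries, inside graft 2 has the lowest sum in all 4 lists, 797 CPM for neutrophil and 96.0 CPM for monocyte genes, and the highest Fth1, 3320 CPM.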

How the data were processed

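Reads were single, 75 bases long, from amplified cDNA. Per the labels and the study's methods, the authors aligned them with STAR 2.7.2a, counted them with featureCounts 1.6.2 on GENCODE M21, and deposited raw counts per gene name. Strand was ignored and reads on several places were not counted. Genes were filtered with filterByExpr by group and tested in R 4.3.3 with edgeR 4.0.16 (TMM, quasi-likelihood test) and limma 3.58.1 (voomWithQualityWeights), with Benjamini-Hochberg adjustment over all 15257 genes. DESeq2 1.42.0 was an alternative. SE and intervals of edgeR are those implied by its F statistic and do not cover the error of alignment or amplification. Fold changes compare inside with outside the graft. Scripts were tested on simulated data. Members and lists were chosen with earlier results of these data known. Named were all members, the 2 largest log2 fold changes of each of 5 groups of other iron genes with any past an adjusted P of 0.05, the most abundant gene per kilobase of each marker list with genes at 0 throughout, and the 3 genes most like the member with the smallest edgeR P. Some genes under this rule are not reported here. The neutrophil list was added after seeing the data.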

Additional observations from a re-analysis of the deposited data

Results flagged for a closer look

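Of 20 sets of 4 outside libraries that were examined, in 2 a library stood apart from the others by Dixon's criterion, where chance gives about 1 in 20, or 1. Neither was a member. Lcn2 was at 26.3 CPM in outside graft 3 and at most 0.081 CPM in the others, and Hp at 2.45 CPM in the same library and at most 0.364 CPM in the others. Neutrophil genes summed to 367 CPM in outside graft 3, the most of the outside libraries, and their part in these values was not tested. The gating protocol that the sort refers back to lists Ly6G and Ly6C among its lineage markers.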

How the results depend on the processing

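Under other normalizations, filters, tests, thresholds and left-out libraries, no member passed an adjusted P of 0.01, and Fth1, Ftl1, Ncoa4, Slc11a1, Slc11a2 and Slc40a1 kept their sign throughout. With each library left out in turn, edgeR log2 fold changes ran from 0.35 to 0.71 for Fth1 and 0.27 to 0.58 for Ftl1. The ranges were -0.75 to 0.20 for Tfrc, -0.91 to 0.78 for Steap3 and -0.19 to 0.028 for Ireb2. They were 4.92 to 12.86 for Lcn2, 5.40 to 8.70 for Hp and 0.84 to 2.02 for Cp. Flvcr2 failed the filter without outside graft 1 and without outside graft 2, and ran from -4.96 to -0.41 in the remaining fits. Without inside graft 2 and outside graft 1, both chosen after seeing the data, the sign turned for Tfrc (0.33), Steap3 (-1.32), Aco1 (0.012) and Flvcr2 (0.93). VoomWithQualityWeights turned Steap3 to -0.13. With no filter on low counts, 2 other iron genes were called by edgeR, Lcn2 (adjusted P of 0.00239) and Hp (8.74e-05). In voomWithQualityWeights, the adjusted P was 0.428 for Lcn2 and 0.472 for Hp. The cause of these changes was not tested.

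Over genes, the deviations of same-numbered libraries had r = -0.071, 0.11 and 0.099, and those of differently numbered libraries ran from -0.18 to 0.093. These values do not settle whether the numbers mark pairs, and the numbers were not taken to pair libraries. With a replicate block over the numbers 1 to 3, which leaves out outside graft 4, edgeR gave 0.53 for Fth1, 0.47 for Slc11a1 and 0.031 for Ireb2, whose sign turned, and called 0 members. Depth limits Steap3 most, with 0 to 67 counts.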
